A study of Mus musculus with 26 samples.

Results

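Described here is how polyA RNA changed between the early 2-cell stage (E2C) and the late 2-cell stage (L2C) of control mouse embryos, the interval of major genome activation and maternal RNA clearance. Genes were taken when they reached 1 TPM or more in at least 2 of the 4 control libraries of these stages. That rule gave 12545 of the 24412 genes in the table, measured in 4 of the 26 libraries of the series. TPM (transcripts per 1000000) shares out a fixed total among all transcripts of a library after correction for their length, so a level is always a share. The E2C and L2C groups each hold 2 libraries of pooled, uninjected C57BL/6J embryos of the genotype named control, with 12 to 20 embryos per E2C pool and 20 per L2C pool. The control genotype is not described further in the sources used here. Beside them stand 4 libraries of mDKO embryos at the same stages, 2 of control MII oocytes (eggs arrested before fertilisation), 2 of control E2C embryos injected with mCherry, and 2 of wild-type 4-cell (4C) embryos injected with mCherry. The mDKO embryos came from oocytes of Zp3-Cre; Kdm3a f/f; Kdm3b f/f females, in which Cre acts in growing oocytes, fertilised in vitro by wild-type sperm. The titles of the L2C libraries read DKO where those at E2C read mDKO, and the genotype field of the L2C libraries names the maternal knockout, so both are called mDKO here. The mDKO embryos therefore lack the maternal supply of both H3K9 demethylases and still have a paternal copy of each gene. All 26 libraries come from C57BL/6J material, and no label tells whether the 2 pools of a group were collected on different days or from different mothers. The p-values measure the spread between those pools, which may be technical.

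A mouse egg is transcriptionally silent and starts development on RNA and protein stored during oocyte growth. After fertilisation a low, minor wave of transcription begins in the 1-cell embryo and peaks early in the 2-cell embryo, where transcripts such as the Zscan4 genes mark it. A major wave follows later in the 2-cell stage and supplies the machinery for transcription, ribosome assembly and metabolism, while deadenylation and decay remove much of the maternal store.

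The 4 control libraries held between 10941 and 12173 genes at 1 TPM or more, and log2 levels correlated across genes at 0.986 between the E2C libraries and 0.982 between the L2C libraries. Sequencing depth cannot be read from TPM, and levels therefore carry no counting interval. A SMART-Seq kit (v4 or mRNA LP) is named for E2C and 4C and TruSeq Stranded mRNA for MII, and no kit for L2C in the labels read here. Stage therefore cannot be told apart from kit, sequencer or sequencing run in any value below. All 8 chosen markers of the 2-cell embryo (Zscan4c, Zscan4d, Zscan4f, Zfp352, Tcstv1, Tcstv3, Usp17le and Nr5a2) were at 1 TPM or more in all 4 libraries, summing to between 1228 and 1766 TPM at E2C and between 685 and 916 TPM at L2C, against 61.4 and 76.6 TPM in MII. Of the 12545 genes, 9368 reached 1 TPM in all 4 libraries. Another 1437 did so in both L2C libraries and neither E2C library, and 520 in both E2C libraries and neither L2C library, so these 2 classes could differ in 1 direction alone. The rule is a level, and Gcfc2 (1.78 and 1.0 TPM at E2C, 0.439 and 0.18 at L2C) and Smg9 (0.714 and 0.375 and then 1.0 and 1.19) lay just inside it. Kremen2 lay just outside, at 0.233 and 0.17 TPM at E2C and 0.9996 and 2.45 at L2C.

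Between E2C and L2C, 9132 of the 12545 genes changed (72.8%), 4924 of them rising (39.3%) and 4208 falling (33.5%). Calls are those of limma on log2(TPM + 1) with a Benjamini-Hochberg adjusted p under 0.05. Changes of at least 2-fold were seen for 3954 genes that rose (31.5%) and 2660 that fell (21.2%), and for 2577 and 1658 with a pseudocount of 5 in place of 1. The median log2 fold change was 0.06, with 5% of genes below -2.07 and 5% above 3.43, and rises thus reached further than falls. In 5627 genes (44.9%) both L2C libraries lay above both E2C libraries, and in 5183 (41.3%) both lay below. With 2 libraries against 2 an exact permutation test cannot go below p = 0.333, so the calls rest on limma's pooling of the spread across genes. The split of calls depended on the TPM rule and on the scaling. Of the 4924 rising genes, 1390 reached 1 TPM in both L2C libraries and neither E2C library. Of the 4208 falling genes, 452 did so in both E2C libraries and neither L2C library. With 1 TPM required in all 4 libraries, 3268 of 9368 genes rose and 3608 fell, so that 47.5% of calls rose in place of 53.9%. Quantile normalization, which moved the median to -0.27, gave 4189 higher and 5408 lower genes, with 43.6% of calls rising.

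**Figure D1:**
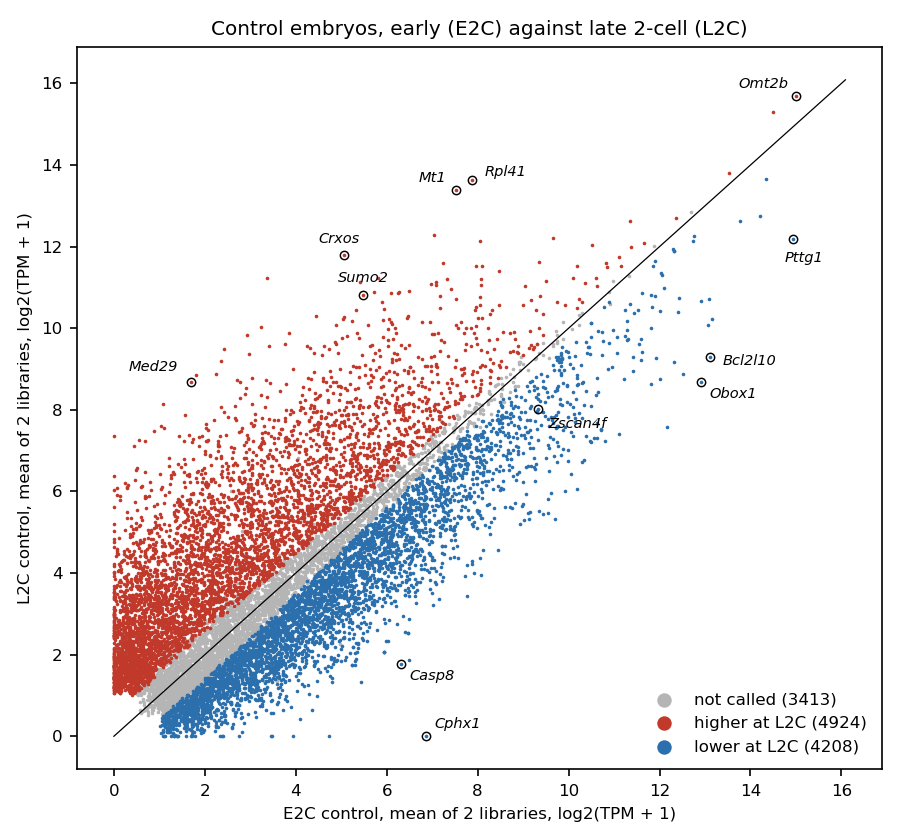
Mean log2(TPM + 1) of the 2 L2C control libraries against that of the 2 E2C control libraries for the 12545 genes, 1 point per gene, with 12 named genes ringed and a line of equal level. The 4924 genes that rose lie above the line and the 4208 that fell below it, and the 3413 genes not called lie on either side of it, at log2 fold changes from -2.72 to 3.43.

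A large share of TPM moved between classes of genes. The classes were chosen on the 4 control libraries at E2C and L2C, so their shares there describe the classes and test nothing. Genes that rose by at least 2-fold held 6.70% and 6.39% of all TPM in the E2C libraries and 42.5% and 42.3% in the L2C libraries. Genes that fell by at least 2-fold held 48.8% and 49.0% at E2C and 12.5% in each L2C library. In MII oocytes the rising genes stood at 7.65% and 7.55% and the falling genes at 47.3% and 47.6%, values within 2 percentage points of those at E2C. In injected 4C embryos the rising genes reached 65.7% and 65.1%, against 5.32% and 5.14% in injected E2C embryos, and the falling genes were at 5.89% and 6.15%, against 53.3% and 53.7%. The 4C and injected E2C libraries are in tables of their own, so these levels are set side by side without a test. Of the 3954 genes up by at least 2-fold, 2951 (74.6%) were higher in both 4C than in both injected E2C libraries, where 33.1% of all 12545 genes were. Of the 2660 down by at least 2-fold, 2393 (90.0%) were lower in 4C, where 50.1% of all were. In these pools of whole embryos, fewer cells of a kind and less RNA per cell cannot be told apart, and neither can a fall of a gene and a rise of the rest of the RNA.

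**Figure D2:**
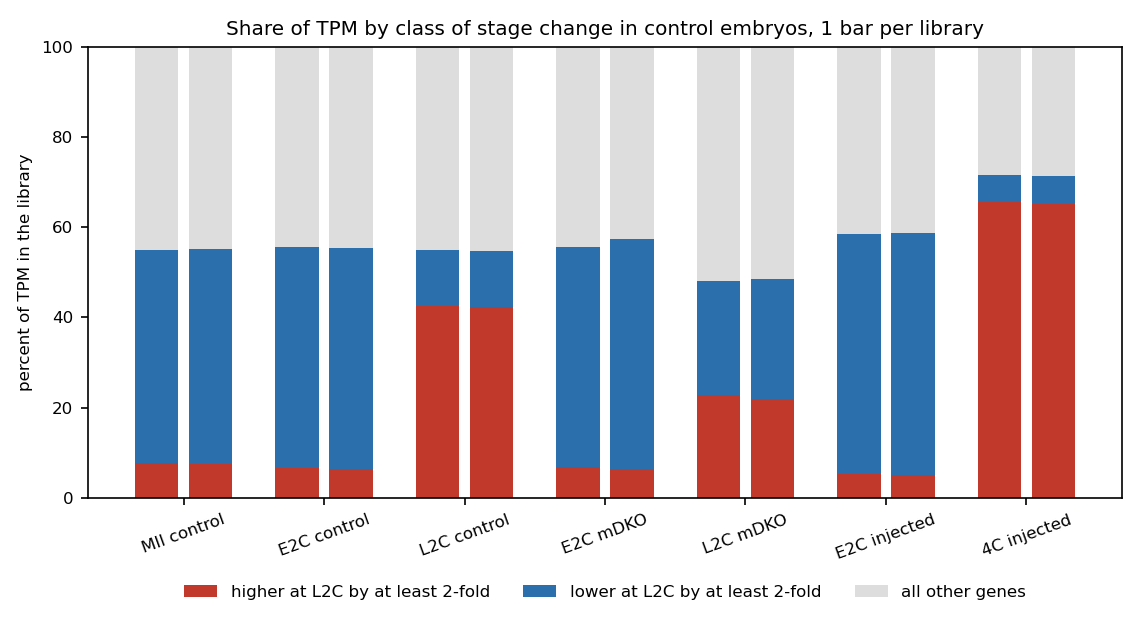
Percent of TPM held by the 3954 genes higher at L2C by at least 2-fold, the 2660 lower by at least 2-fold and all other genes, 1 bar per library. The rising genes go from 6.70% and 6.39% at E2C to 42.5% and 42.3% at L2C in control embryos and to 65.7% and 65.1% in injected 4C embryos. These classes were chosen on the 4 uninjected control libraries at E2C and L2C, whose bars therefore describe the classes and test nothing.

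The 6 promoters below are printed to show motifs whose shares among the gene lists are given after them. The genes that rose are Rpl41 (a protein of the large ribosomal subunit), Polr1c (a subunit shared by RNA polymerases I and III), Ppat (the first committed step of purine synthesis) and Gabpa (an ETS-family transcription factor). Zscan4c and Zscan4f are early 2-cell genes that were already high at E2C and fell, while 18 of the 42 tested genes of that list rose. All 6 were chosen after their values were seen, as named genes whose promoters hold these motifs. Each line gives the 150 bases before the start used in the promoter table, 5′ to 3′ on the strand of the gene, from RefSeq on GRCm38.p6. Capitals mark motifs searched on both strands. The motif bound by ETS factors such as GABPA was read as CCGGAAG, and the box of SP and KLF factors as GGGCGG. The TATA box, a basal promoter element, was read as TATAAA, and the box of the NFY complex as CCAAT. Capitals in Ppat also mark the motif of the nuclear receptor NR5A2, TCAAGGNCA, which 0.969% of members and 1.36% of all promoters held. Capitals in Gabpa also mark the motif of YY1, which 0.639% of members and 0.289% of all promoters held. The 12 motifs searched also included the OBOX core and those of NRF1, DUX, heat shock factors, E-box factors and CREB. No match to these was found in the bases printed.
Rpl41 (chr10:128549169-128549318, minus strand): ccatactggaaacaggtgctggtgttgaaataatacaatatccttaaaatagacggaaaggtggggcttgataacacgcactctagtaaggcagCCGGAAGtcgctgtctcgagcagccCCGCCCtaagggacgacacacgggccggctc
Polr1c (chr17:46248046-46248195, minus strand): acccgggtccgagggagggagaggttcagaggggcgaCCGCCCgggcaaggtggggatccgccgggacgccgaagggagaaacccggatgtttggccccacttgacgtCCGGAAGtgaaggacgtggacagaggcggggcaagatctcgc
Ppat (chr5:76951579-76951728, minus strand): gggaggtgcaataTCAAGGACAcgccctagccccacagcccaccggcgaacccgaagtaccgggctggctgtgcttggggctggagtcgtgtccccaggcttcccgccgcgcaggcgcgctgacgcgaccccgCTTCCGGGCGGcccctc
Gabpa (chr16:84834974-84835123, plus strand): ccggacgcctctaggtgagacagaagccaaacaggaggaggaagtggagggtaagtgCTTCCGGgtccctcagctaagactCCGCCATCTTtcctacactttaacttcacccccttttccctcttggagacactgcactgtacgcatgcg
Zscan4c (chr7:11005595-11005744, plus strand): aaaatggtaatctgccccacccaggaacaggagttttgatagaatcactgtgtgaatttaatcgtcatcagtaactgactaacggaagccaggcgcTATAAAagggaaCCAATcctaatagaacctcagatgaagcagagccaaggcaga
Zscan4f (chr7:11397765-11397914, plus strand): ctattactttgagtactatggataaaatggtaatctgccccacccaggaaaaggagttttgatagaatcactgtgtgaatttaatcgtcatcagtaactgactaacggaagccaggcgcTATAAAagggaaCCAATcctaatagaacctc
The ETS motif began 56 bases before the start in Rpl41, 42 in Polr1c, 17 in Ppat and 93 in Gabpa. In Ppat it shared 2 bases with the SP1 box, and no other marked motifs overlapped. The windows of Zscan4c and Zscan4f are near copies of each other: their annotated starts are offset by 23 bases, and at that offset 126 of 127 bases were identical. In both, the NFY box began 12 bases after the TATA box. The ETS motif was found in 13.6% of the 10015 members with a promoter in the table, against 7.05% of all 27025 promoters of this length. It was in 30.0% of the 60 promoters of tested ribosomal proteins, 28.6% of 49 of ribosome biogenesis and 29.6% of 27 of the proteasome, and in 0 of 29 of early 2-cell genes. Lists that did not mainly rise held it as often, with 36.1% of 36 promoters of DNA replication genes and 33.3% of 39 of the spliceosome core, and 1 of 23 promoters of the mostly rising nuclear transport genes held it. The TATA box was in 31.0% of those 29 and 7.58% of members, and the NFY box in 58.6% against 38.5%. Other lists held them often too: the NFY box was in 84.6% of 13 promoters of p53 targets, 80% of 20 of meiotic control and 64.3% of 14 of the subcortical maternal complex and oocyte Nlrp genes, and the TATA box in 28.6% of 14 of imprinted genes. Shares are over the 250 bases before the start, and a match is a run of letters, not a measured site. Over all promoters the TATA box was in 12.97% and the NFY box in 34.5%. The OBOX core, read as GGATTA, was in 24.1% of the early 2-cell promoters, 5.55% of members and 6.38% of all promoters.

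Among genes that changed and averaged at least 20 TPM at the higher stage, the 11 described here with the highest log2 fold change rose by between 6.56 and 7.08 on the log2 scale, with limma's adjusted p at most 7.70e-05. Gpn3, a GTPase that takes part in RNA polymerase II assembly (chromosome 5, 122372508 to 122382771), was at 1.38 and 0.891 TPM in the E2C libraries and 275 and 286 in the L2C libraries, 248-fold higher, with a log2 fold change of 7.05 ± 0.18 (SE, n = 2 libraries per stage, as for all later log2 values). Both L2C libraries stood far above both E2C libraries, and 4C embryos held 719 and 401 TPM. Med29, a subunit of the Mediator complex that links transcription factors to RNA polymerase II (chromosome 7, 28385247 to 28392690), was at 2.05 and 2.44 TPM and then 418 and 408, a log2 fold change of 7.0 ± 0.15. Crxos, a homeobox gene on the strand opposite Crx, is listed at 0 TPM in both MII libraries, stood at 26.4 and 39.3 TPM at E2C and reached 3826 and 3276 at L2C. It had been detected at E2C and rose by 6.74 ± 0.19 on the log2 scale. The strand setting is not known here, so its reads cannot be told apart from those of Crx where the genes overlap. Spic, an ETS-family factor known from red pulp macrophages, went from 9.6 and 4.5 to 967 and 848 TPM (log2 6.89 ± 0.28).

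Timd2, a receptor for ferritin, went from 3.67 and 4.57 to 652 and 534 TPM and stood at 2612 and 2087 in 4C embryos. Vimp, a selenoprotein of the endoplasmic reticulum, went from 8.85 and 7.93 to 1009 and 1069 TPM. In MII, Timd2 is listed at 0 in both libraries and Vimp was at 0.992 and 3.09 TPM. Nop16, a nucleolar protein of large-subunit assembly, was at 2.24 and 5.84 and then 486 and 452 TPM (log2 6.64 ± 0.32). Plac9b, which has a near-identical copy in Plac9a, so that the share of each is uncertain, went from 0.196 and 0.526 to 135 and 139 TPM. Rab20, a GTPase of endosomes, went from 0.61 and 0.585 to 147 and 153 TPM. Rps27 was the least even of the 11: it was at 0.46 and 1.3 TPM at E2C and at 391 and 79.4 at L2C, a log2 fold change of 6.6 ± 0.65.

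**Figure D3:**
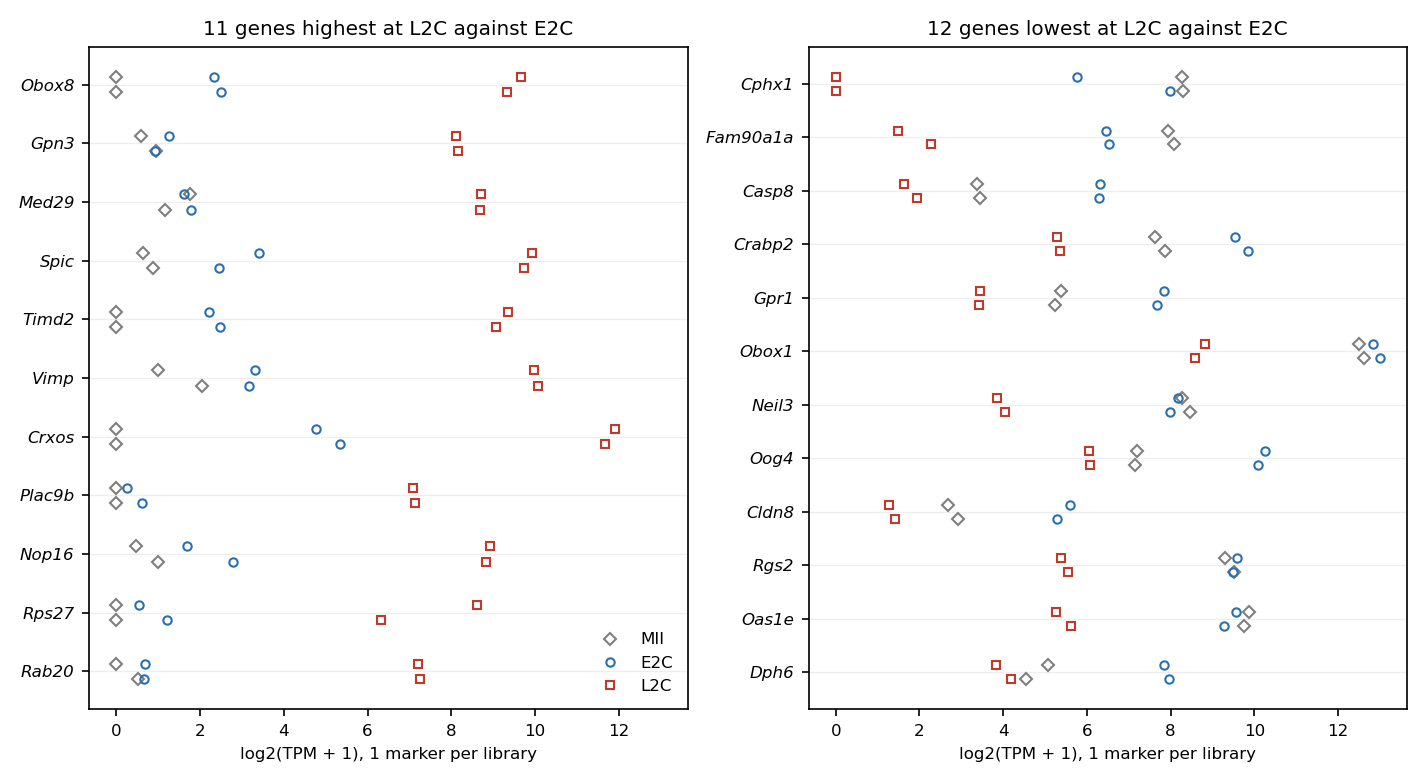
Levels of 11 genes with the highest and the 12 with the lowest log2 fold change, as log2(TPM + 1) with 1 marker per library for MII, E2C and L2C control material. In all 23 genes the L2C markers lie apart from the E2C markers, and the higher genes were at or near 0 TPM in MII, the highest MII value among them being 3.09 TPM for Vimp.

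The Obox genes, homeobox factors encoded in a cluster on chromosome 7, went both ways. Of 8 tested with the related Crxos, 4 rose and 4 fell, where 39.3% of all genes rose and 33.5% fell. Obox8 and Obox6 rose: Obox8 went from 3.99 and 4.68 to 809.5 and 641 TPM (log2 7.08 ± 0.17) and Obox6 from 10.1 and 18.1 to 1088 and 813 TPM (log2 6.02 ± 0.26). Both were at 0 TPM in MII. Obox1, Obox2 and Obox7 fell: Obox1 went from 7335 and 8167 to 449 and 381 TPM (log2 -4.22 ± 0.11), Obox2 from 3529.6 and 3678 to 418 and 381 (log2 -3.17 ± 0.0977) and Obox7 from 979.7 and 1158 to 92.3 and 77.8 (log2 -3.64 ± 0.14). In MII, Obox1 was at 5780.3 and 6238 TPM, Obox2 at 9979.9 and 10596 and Obox7 at 680.4 and 724. These 3 were thus abundant in the egg already. Members are close in sequence, so reads could be split between them.

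Among 29 regulators of genome activation, 15 rose (51.7%), 6 fell (20.7%) and 8 were not called, against 39.3% and 33.5% of all genes. Their median log2 fold change was 0.57 against 0.06 over all genes. Gabpa (chromosome 16, 84834891 to 84863783) went from 2.71 and 3.8 to 230.3 and 143 TPM (log2 5.43 ± 0.26), and Yy1, a zinc finger factor of many housekeeping promoters, from 4.63 and 3.59 to 114 and 111 (log2 4.48 ± 0.18). Dppa4 and Dppa2, partner proteins that bind CG-rich promoters and act upstream of Dux, moved by different amounts. Dppa4 went from 17.9 and 20.2 to 777 and 698 TPM (log2 5.2 ± 0.13), while Dppa2, already at 152 and 149 TPM at E2C, reached 318 and 303 (log2 1.04 ± 0.11). Nr5a2, a nuclear receptor of the 2-cell embryo, went from 8.81 and 7.36 to 44 and 38.1 TPM (log2 2.21 ± 0.19). Klf17, a Krüppel-like factor supplied by the egg, fell from 515 and 442 to 199 and 256 TPM (log2 -1.08 ± 0.15).

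Of 61 subunits of RNA polymerases I to III and general transcription factors, 40 rose, 11 fell and 10 were not called (median 1.31). Polr1c (chromosome 17, 46243920 to 46248045) went from 13.4 and 20.9 to 354 and 398 TPM (log2 4.41 ± 0.21). Polr2h, a subunit common to the 3 polymerases, went from 59.8 and 70.1 to 841 and 685 (log2 3.53 ± 0.15). The 2 falls of the largest size were Gtf2b, the factor TFIIB that places polymerase II at the start site, and Tbpl2, an oocyte form of the TATA-binding protein. Gtf2b went from 601 and 523 to 162 and 127 TPM (log2 -1.96 ± 0.15) and Tbpl2 from 26 and 28.3 to 4.61 and 8.26 (log2 -1.96 ± 0.26). Among 47 core splicing proteins the directions were mixed, with 22 higher (46.8%) and 14 lower (29.8%), near the shares of all genes. Their median was 0.22, which fell to -0.01 under quantile normalization. Snrpd2 went from 38.4 and 41.2 to 943 and 949 TPM (log2 4.54 ± 0.11) and Snrpd3 from 1719 and 1488 to 322 and 371 (log2 -2.21 ± 0.12).

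Ribosomal proteins had the highest share of rising members among the lists with at least 8 tested genes. Of 81 cytosolic ribosomal proteins tested, 79 rose and 0 fell, where 39.3% of all genes rose, and the median log2 fold change was 3.22 against 0.06. Their summed share of TPM went from 1.35% and 1.33% at E2C to 7.91% and 7.78% at L2C, and stood at 19.3% and 21.5% in 4C embryos. Rpl41 (chromosome 10, 128548110 to 128549168) was at 232 and 235 TPM and then 12982 and 12398, 54.4-fold higher (log2 5.76 ± 0.089), and was among the 5 most abundant transcripts at L2C. Rps19 of the small subunit went from 37.5 and 40.2 to 1412 and 1362 TPM (log2 5.12 ± 0.11). All 81 reached 1 TPM in at least 1 library of each stage, and Rps27 was the only one of them with a mean under 1 TPM at E2C. Ribosomal protein genes have many processed pseudogenes, between which reads could be split.

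Of 58 ribosome biogenesis factors, 50 rose (86.2%), 3 fell (5.17%) and 5 were not called (median 1.9), against 39.3% and 33.5% of all genes. Nob1, the nuclease that completes the 3′ end of small-subunit RNA (chromosome 8, 107412489 to 107425038), went from 5.36 and 4.92 to 123 and 125 TPM (log2 4.35 ± 0.16). Npm1, the abundant nucleolar chaperone nucleophosmin, was lower, at 1926 and 1887 and then 1648 and 1538 TPM (log2 -0.26 ± 0.0912, limma adjusted p = 0.0347). Bms1, a GTPase of small-subunit assembly, went from 37.5 and 27 to 14.4 and 19.5 TPM (log2 -0.88 ± 0.23, adjusted p = 0.00966). Both of these calls were lost when E2C replicate 1 or L2C replicate 1 was left out: adjusted p was then 0.168 and 0.0598 for Npm1 and 0.0746 and 0.106 for Bms1. For Npm1 it was also lost without E2C replicate 2 (log2 -0.27) and without L2C replicate 2 (log2 -0.21). With all 4 libraries the Npm1 call was lost under size-factor scaling (limma adjusted p = 0.114) and quantile normalization (0.119). It was lost too without the variance trend (0.200), with the replicate number as a block (0.094) and without the filter on low TPM (0.0825). Of 48 translation factors, 32 rose (66.7%) and 8 fell (16.7%), with a median of 1.02. Eif3c, a core subunit of initiation factor 3, went from 6.23 and 6.69 to 104 and 147 TPM (log2 4.07 ± 0.20), Eif1a, the scanning factor, from 2.67 and 2.98 to 80.6 and 67.1 (log2 4.29 ± 0.19), while Eif1b, a form of the start-codon factor EIF1, fell from 1628 and 1524 to 161 and 157 (log2 -3.3 ± 0.10).

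**Figure D4:**
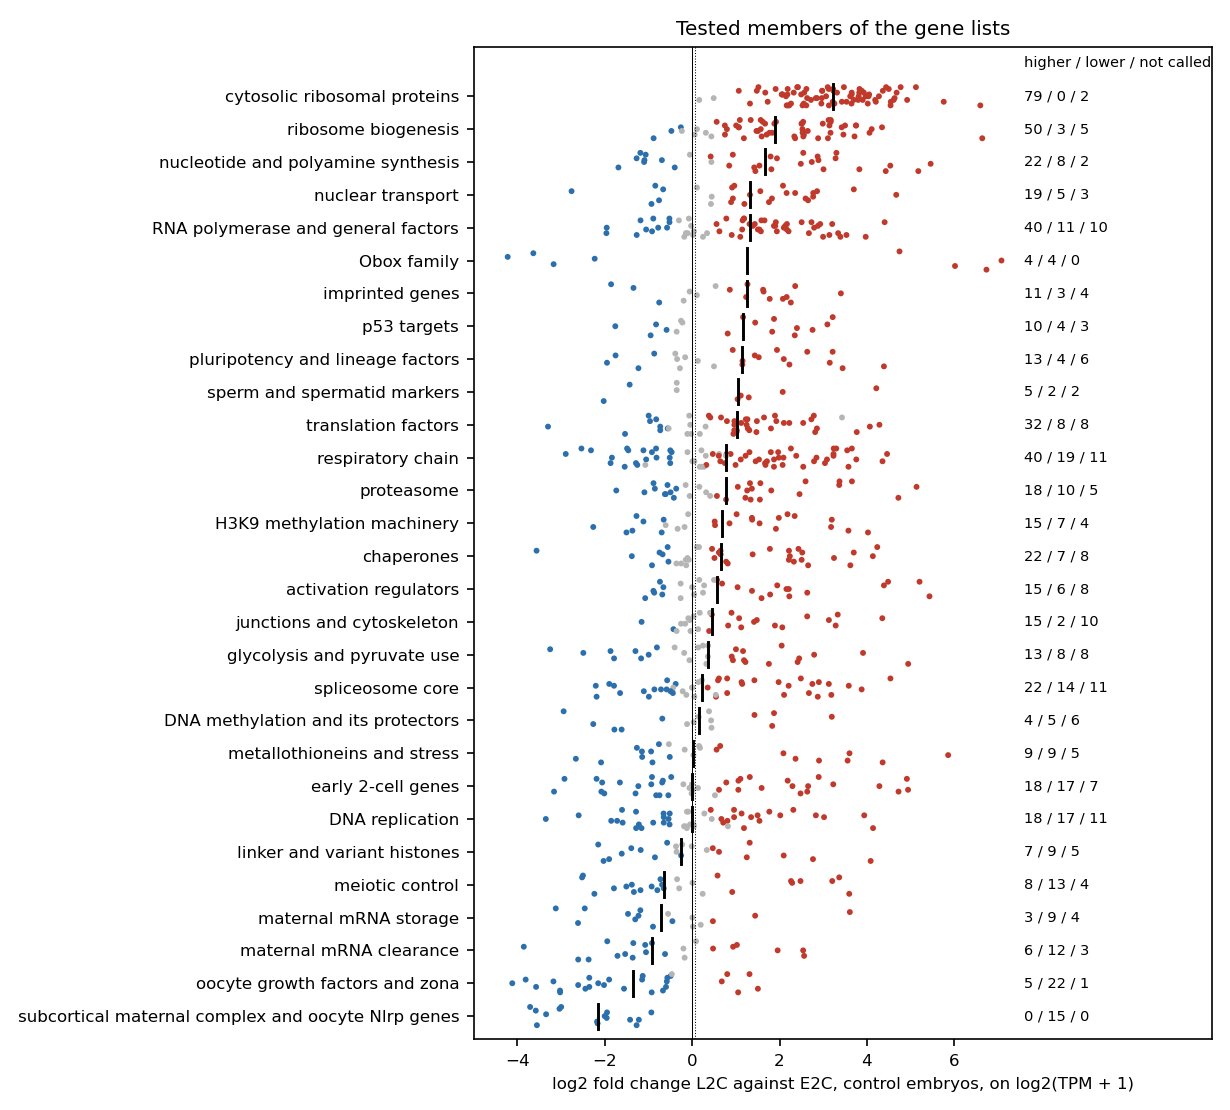
Log2 fold change from E2C to L2C of each tested member of the gene lists with at least 8 tested members, 1 point per gene, red where it rose, blue where it fell and grey where it was not called, with a bar at the list median and a dotted line at the median of all genes. The counts at the right give members higher, lower and not called, from 79, 0 and 2 for ribosomal proteins to 0, 15 and 0 for the subcortical maternal complex and oocyte Nlrp genes.

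Other cell machinery rose less evenly. Of 33 proteasome subunits 18 rose (54.5%), 10 fell (30.3%) and 5 were not called (median 0.78), where 39.3% of all genes rose and 33.5% fell. Psmb5 and Psmb1 of the 20S core rose, Psmb5 from 7.07 and 4.02 to 207 and 240.4 TPM (log2 5.14 ± 0.24) and Psmb1 from 27.7 and 29.6 to 878 and 694 (log2 4.72 ± 0.15). Psma7, an alpha subunit of the same core, fell from 322 and 284 to 64.7 and 125 TPM (log2 -1.74 ± 0.28) and stood at 1077 and 1462 TPM in 4C embryos. Of 37 chaperones 22 rose (59.5%) and 7 fell (18.9%), with a median of 0.65. Under quantile normalization 19 rose and 11 fell. Cct6a, a subunit of the TRiC chaperonin, went from 4.19 and 2.93 to 85.6 and 71.8 TPM (log2 4.14 ± 0.21) and the small heat shock gene Hspb1 from 12.1 and 8.89 to 211 and 217 (log2 4.24 ± 0.18). Hspa1a and Hspa1b are inducible HSP70 genes long used as marks of genome activation. Hspa1a went from 1.11 and 0.798 to 4.21 and 7.58 TPM (log2 1.78 ± 0.29, limma adjusted p = 0.00114) and Hspa1b from 2.33 and 1.36 to 10.9 and 13.7 (log2 2.24 ± 0.26). They are near-identical, so the split between them is uncertain. Pfdn4, a subunit of the prefoldin co-chaperone, fell from 1817 and 1750.3 to 163 and 138 TPM (log2 -3.56 ± 0.12).

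Of 27 nuclear transport genes 19 rose (70.4%) and 5 fell (18.5%), with a median of 1.32, against 39.3% and 33.5% of all genes. Of the 6 importin alpha genes among them 3 rose, 2 fell and 1 was not called. Kpna1 went from 1.62 and 2.28 to 71.6 and 75.8 TPM (log2 4.67 ± 0.20), and Kpna7, the importin alpha of the oocyte, from 289.6 and 259.97 to 36.2 and 43.3 (log2 -2.76 ± 0.14). At E2C the level of Kpna7 was above that of Kpna1 in both libraries, and at L2C it was below it in both.

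Of 32 enzymes that make nucleotides and polyamines 22 rose (68.75%) and 8 fell (25%), with a median of 1.67, against 39.3% and 33.5% of all genes. Ppat (chromosome 5, 76913249 to 76951578) went from 2.34 and 3.01 to 172 and 149 TPM (log2 5.46 ± 0.18). Prps1, which makes the ribose phosphate donor and lies on the X chromosome, went from 29.8 and 34.3 to 1323 and 1075 (log2 5.18 ± 0.14), and Impdh2, the entry to guanine nucleotides, from 6.69 and 8.02 to 174 and 212 (log2 4.54 ± 0.17). Odc1, the first enzyme of polyamine synthesis, was at 222 and 212 TPM in MII, 21.2 and 23 at E2C and 334 and 318 at L2C, so E2C held the lowest level of the 3 stages (log2 3.83 ± 0.13 from E2C to L2C). Of 70 nuclear-encoded respiratory chain genes 40 rose (57.1%) and 19 fell (27.1%), with a median of 0.78. Cox7c of cytochrome oxidase went from 31.7 and 27.5 to 569 and 790.3 TPM (log2 4.46 ± 0.18), while Ndufa8 of complex I fell from 141 and 103 to 16.6 and 14.2 (log2 -2.89 ± 0.19).

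Of 29 genes of glycolysis and pyruvate use 13 rose, 8 fell and 8 were not called, and these shares (44.8% and 27.6%) are near those of all genes (39.3% and 33.5%). Mpc2, a subunit of the mitochondrial pyruvate carrier, went from 24.8 and 22.5 to 766 and 751 TPM (log2 4.95 ± 0.12). Ldhb, the lactate dehydrogenase subunit abundant in eggs, fell from 4004 and 4303 to 383 and 493 TPM (log2 -3.25 ± 0.13) and was at 28 and 31.4 TPM in 4C embryos.

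On the falling side, 11 of the 12 lowest genes fell by between 3.9 and 4.62 on the log2 scale, with limma's adjusted p at most 6.00e-06. The remaining one, Cphx1, an oocyte homeobox gene (chromosome 14, 25941559 to 25956374), was at 53.5 and 251 TPM at E2C and is listed at 0 in both L2C libraries. Its E2C libraries differ widely, and no fold is given against a group at 0 (limma adjusted p = 4.66e-05). Casp8, the initiator caspase of death receptors (chromosome 1, 58795233 to 58847503), was at 9.41 and 9.84 TPM in MII, 79 and 77.7 at E2C and 2.1 and 2.82 at L2C, 31.9-fold lower than at E2C (log2 -4.53 ± 0.19). Crabp2, which carries retinoic acid to its receptor (chromosome 3, 87948693 to 87953372), was at 196 and 232 TPM in MII, 748 and 913 at E2C and 37.8 and 39.8 at L2C (log2 -4.38 ± 0.14 from E2C to L2C). Both were higher at E2C than in MII, where the kit differed, and in 4C embryos Casp8 was at 0.0546 and 0 TPM and Crabp2 at 1.65 and 4.67.

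Oog4, a PRAME-family gene of oocytes, and Gpr1, a receptor for chemerin, had the same order of levels. Oog4 was at 145 and 142 TPM in MII, 1229 and 1089.8 at E2C and 64.7 and 66.7 at L2C. Gpr1 was at 40.4 and 37 TPM in MII, 229 and 204 at E2C and 9.82 and 9.8 at L2C. Dph6, a diphthamide synthase, and the claudin Cldn8 were likewise highest at E2C. Dph6 went from 229 and 249.9 at E2C to 13.3 and 17.2 TPM at L2C and Cldn8 from 47.2 and 38 to 1.41 and 1.65. Other genes were already as high in the egg. Neil3, a DNA glycosylase, was at 308 and 351 TPM in MII, 287 and 250.5 at E2C and 13.5 and 15.4 at L2C. Rgs2, which restrains G-protein signals in the egg, was at 624 and 724, then 766 and 720.5, then 40.7 and 45.7 TPM. Oas1e, of the oligoadenylate synthetase family, was at 941 and 865, then 759 and 622, then 37.6 and 48 TPM. Fam90a1a went from 87.3 and 91.5 to 1.8 and 3.82 TPM. In all of these, both L2C libraries lay below both E2C libraries.

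The subcortical maternal complex is a protein lattice under the egg membrane that embryos need to pass the 2-cell stage. Its list held 8 genes described as members and 7 other Nlrp genes of the oocyte (Nlrp4a, Nlrp4b, Nlrp4e, Nlrp9a, Nlrp9b, Nlrp9c and Nlrp14). All 8 and all 7 fell, where 33.5% of all genes did, with medians of -1.71 and -2.18 and of -2.17 over the 15. The share of TPM of the 15 went from 1.39% and 1.36% at E2C to 0.192% and 0.190% at L2C, and was 0.00977% and 0.00475% at 4C. Nlrp4a, one of the other Nlrp genes (chromosome 7, 26435113 to 26476142), went from 516 and 519 to 32.9 and 45.3 TPM (log2 -3.71 ± 0.17) and Ooep, a member of the complex, from 1324 and 1261 to 102 and 116 (log2 -3.55 ± 0.11). Of 28 oocyte growth factors, zona genes and oocyte transcription factors, 22 fell, 5 rose and 1 was not called (median -1.35). Bcl2l10, an oocyte relative of BCL2, went from 8921 and 8875 to 633 and 632 TPM (log2 -3.81 ± 0.0849). Bmp15 and Gdf9 are growth factors that the oocyte secretes to its follicle. Bmp15 was at 1879 and 1118 TPM in MII and went from 1168 and 1099.8 to 201 and 243 (log2 -2.36 ± 0.12). Gdf9 was at 14404 and 14089 TPM in MII and went from 224 and 209 to 92.5 and 104 (log2 -1.13 ± 0.13), so its level at E2C was already far under that of the egg. Zp3, the sperm-binding protein of the zona, went the other way, from 37.1 and 33.6 to 103 and 101 TPM (log2 1.5 ± 0.14), far under the 707 and 417 TPM of MII.

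Among factors that hold or remove maternal RNA, falls outnumbered rises, where 33.5% of all genes fell and 39.3% rose. Of 16 storage factors 9 fell (56.25%), 3 rose (18.75%) and 4 were not called (median -0.72). Dazl, an RNA-binding activator of translation in germ cells, went from 520.5 and 543 to 59.5 and 60.9 TPM (log2 -3.12 ± 0.11) and Zar1, an oocyte factor that binds 3′ ends of stored RNA, from 136 and 109 to 18.5 and 24.5 (log2 -2.46 ± 0.19). The helicase Ddx6 rose from 1.9 and 1.82 to 6.72 and 6.81 TPM (log2 1.44 ± 0.22). Of 21 clearance factors 12 fell (57.1%) and 6 rose (28.6%), with a median of -0.92. Btg4, the adaptor that brings the CCR4-NOT deadenylase to maternal RNA (chromosome 9, 51102147 to 51119924), went from 8119.7 and 9296 to 1920.1 and 1468 TPM (log2 -2.37 ± 0.14), and the deadenylase Cnot6l from 341 and 256 to 75.9 and 106 (log2 -1.71 ± 0.20). Pabpn1l, a poly(A)-binding partner of BTG4, went from 1427 and 1400.4 TPM in MII to 91.5 and 77.6 at E2C and 6.04 and 3.93 at L2C (log2 -3.85 ± 0.22 from E2C to L2C). The readers and writers that rose included Ythdf2, which binds methylated adenosine, from 16.8 and 17.8 to 114 and 101 TPM (log2 2.56 ± 0.15), and the uridylating enzyme Zcchc11, from 0.29 and 0.208 to 6.0 and 6.53 (log2 2.54 ± 0.22).

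Among 25 genes of meiotic control 13 fell (52%), 8 rose (32%) and 4 were not called (median -0.65), where 33.5% of all genes fell and 39.3% rose. Mos, the kinase that holds the egg at metaphase, had gone from 2158 and 1773 TPM in MII to 12.5 and 9.37 at E2C and 3.47 and 3.91 at L2C (log2 -1.33 ± 0.23, limma adjusted p = 0.00142). Fbxo43, the inhibitor that keeps that arrest, went from 52.9 and 41.8 to 7.33 and 7.64 TPM (log2 -2.5 ± 0.19) and the cyclin Ccnb2 from 245 and 277 to 43.1 and 46.1 (log2 -2.52 ± 0.13). The spindle checkpoint kinase Ttk fell from 241 and 199.95 to 43.6 and 47.9 TPM (log2 -2.24 ± 0.14). In contrast the mitotic kinase Cdk1 rose from 36.6 and 40.5 to 371 and 357 (log2 3.21 ± 0.13) and the spindle motor Kif11 from 8.21 and 6.4 to 93.7 and 75.5 (log2 3.37 ± 0.19).

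Early 2-cell genes, the minor activation transcripts, went in both directions: of 42 tested, 18 rose, 17 fell and 7 were not called, with a median of -0.0015, and 11 fell when L2C replicate 2 was left out. The shares, 42.9% and 40.5%, stand against the 39.3% and 33.5% of all genes. Dux, the homeobox factor at the head of this programme, was at 0.0967 and 0.324 TPM in MII, 37.6 and 29.6 at E2C and 2.92 and 2.76 at L2C (log2 -3.16 ± 0.21 from E2C to L2C). Zscan4c (chromosome 7, 11005745 to 11010547) went from 191 and 308 to 64.1 and 42.9 TPM (log2 -2.19 ± 0.26). Zscan4f (chromosome 7, 11397915 to 11402318) went from 521 and 778 to 299.99 and 223 (log2 -1.3 ± 0.21, limma adjusted p = 0.00112) and Zscan4d from 201 and 309 to 125 and 89 (log2 -1.23 ± 0.24, adjusted p = 0.00236). The call for Zscan4d was lost without L2C replicate 2, at an adjusted p of 0.0655. In these 3 genes both L2C libraries lay below both E2C libraries. Their copies are near-identical, as the promoters above show, so reads could be split between them. Other early genes were still rising: Tdpoz1, a BTB-domain gene, went from 1.82 and 1.99 to 89.7 and 87 TPM (log2 4.94 ± 0.18) and Pramel7, a PRAME-family gene of naive pluripotency, from 5.76 and 3.52 to 168 and 164 (log2 4.91 ± 0.22). By 4C the Zscan4 genes were under 1 TPM (0 and 0.55 for Zscan4c and 0.377 and 0.92 for Zscan4f), while Pramel7 was at 655 and 202.

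Of 46 DNA replication factors 18 rose and 17 fell (median -0.01), or 39.1% and 36.96%, near the shares over all genes. Ccne1, the cyclin of S-phase entry, rose from 18.4 and 14.7 to 249 and 285 TPM (log2 3.94 ± 0.16) and Rpa2, a subunit of the single-strand binding protein, from 12.6 and 9.98 to 215 and 213 (log2 4.14 ± 0.16). Rfc3, a clamp loader subunit, fell from 172 and 132 to 13.1 and 14.7 TPM (log2 -3.35 ± 0.17). Of 21 linker and variant histones 7 rose (33.3%) and 9 fell (42.9%), against 39.3% and 33.5% of all genes. The oocyte linker histone H1foo, at 15370.4 and 15123 TPM in MII, went from 389 and 435 at E2C to 77.5 and 109 at L2C (log2 -2.15 ± 0.17), while H2afz, which encodes the variant H2A.Z, went from 259 and 269 to 4553 and 4442 TPM (log2 4.09 ± 0.0924).

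Of 26 genes that write, read or erase H3K9 methylation 15 rose (57.7%) and 7 fell (26.9%), against 39.3% and 33.5% of all genes. Under quantile normalization 12 rose and 10 fell. Kdm3a (chromosome 6, 71588970 to 71632990), the demethylase whose maternal supply the study removes, went from 2.59 and 2.07 to 34.1 and 43.8 TPM (log2 3.58 ± 0.22), and Kdm3b from 1.05 and 0.40 to 3.06 and 3.7 (log2 1.37 ± 0.26, limma adjusted p = 0.00245). Kdm4c, an eraser of trimethylated H3K9, went from 0.555 and 0.0543 to 20.7 and 19 TPM (log2 4.02 ± 0.26). Trim28, the corepressor that brings SETDB1 to zinc finger proteins, went from 613 and 603 TPM in MII to 5.76 and 4.87 at E2C and 54.6 and 59 at L2C (log2 3.2 ± 0.18 from E2C to L2C). The methyltransferase Setdb1 itself fell from 45.3 and 39 to 13 and 18.8 TPM (log2 -1.37 ± 0.21). Of 15 genes of DNA methylation and its protection 4 rose (26.7%), 5 fell (33.3%) and 6 were not called, so the share that fell was near that of all genes. Zfp57, which guards imprints, fell from 988 and 836 to 113 and 122 TPM (log2 -2.94 ± 0.12). The maintenance pair Uhrf1 and Dnmt1 fell, Uhrf1 from 53.4 and 43.5 to 7.93 and 10.7 TPM (log2 -2.26 ± 0.21) and Dnmt1 from 49.7 and 39.5 to 12.2 and 12.2 (log2 -1.78 ± 0.18).

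Among 23 tested pluripotency and lineage factors 13 rose (56.5%) and 4 fell (17.4%), against 39.3% and 33.5% of all genes, with a median of 1.15. Under quantile normalization 7 fell. Of the 19 with 1 TPM or more in a library of each stage, 10 rose and 4 fell. Klf5, a factor of both first lineages, went from 1.38 and 2.34 to 59.4 and 56.9 TPM (log2 4.39 ± 0.22), Zfp42 (REX1) from 4.65 and 2.16 to 42.5 and 47.6 (log2 3.44 ± 0.29) and Tead4, needed for trophectoderm, from 0.163 and 0 to 5.05 and 6.41 (log2 2.63 ± 0.23). Pou5f1 (OCT4) fell from 72 and 56.3 to 20.6 and 34.1 TPM (log2 -1.23 ± 0.25, limma adjusted p = 0.00314) and Gata3 from 24.3 and 21.8 to 4.8 and 5.65 (log2 -1.95 ± 0.20). Nanog stood at 3.97 and 1.93 and then 3.32 and 3.04 TPM, overlapping levels with no call (adjusted p = 0.708).

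In 3 further lists the members that rose outnumbered those that fell, in part through members that passed the TPM rule at L2C alone. Such members could only rise. Among members with 1 TPM or more in a library of each stage, 12 of 24 junction genes rose and 2 fell. The same count gave 6 and 3 of 13 imprinted genes and 9 and 4 of 16 p53 targets. Of 27 junction and cytoskeleton genes 15 rose and 2 fell, 9 rising without L2C replicate 2 and 5 falling under quantile normalization, with F11r, the junction adhesion molecule A, going from 1.18 and 2.15 to 49.8 and 55.4 TPM (log2 4.35 ± 0.24). Of 18 tested imprinted genes 11 rose and 3 fell, and Phlda2, expressed from the maternal copy in placenta, went from 77 and 83.1 to 351 and 425 (log2 2.26 ± 0.14). Of 17 p53 targets 10 rose and 4 fell (7 under quantile normalization, 2 without E2C replicate 1 or without L2C replicate 1), and Cdkn1a, the cell cycle inhibitor p21, went from 7.88 and 7.73 to 63.9 and 86.2 (log2 3.1 ± 0.19). Of 23 metal and oxidative stress genes 9 rose and 9 fell, again near the 39.3% and 33.5% of all genes. Mt1 (chromosome 8, 94178883 to 94180327) went from 211 and 161 to 10442 and 11067 TPM, 57.9-fold higher (log2 5.86 ± 0.14), and Mt2 from 159 and 139.6 to 2966 and 3205 (log2 4.36 ± 0.11).

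The 5 most abundant RNAs of each stage moved in both directions. Omt2b and Omt2a, near-identical oocyte maturation genes, were together 5.31% and 5.93% of TPM at E2C and 9.41% and 9.22% at L2C. Their log2 fold changes were 0.68 ± 0.0861 and 0.80 ± 0.0821, and in 4C embryos Omt2b was at 153 and 453 TPM and Omt2a at 133 and 610.3. The call of Omt2b was lost under size-factor scaling (adjusted p = 0.0686), and quantile normalization, which sets the top gene of every library to 1 value, gave 0. Dppa3 (STELLA), which protects the maternal genome from demethylation, went from 19715 and 21744 to 14013 and 11852 TPM (log2 -0.68 ± 0.11; -0.06 and not called under quantile normalization). Pttg1 (securin, the guard of sister chromatids) and Mphosph6, an exosome partner, were among the 5 highest at E2C and fell, Pttg1 from 30931 and 31638 to 4577 and 4673 (log2 -2.76 ± 0.0772) and Mphosph6 from 17329 and 20533 to 7642 and 6316 (log2 -1.44 ± 0.12). Cks2, a CDK-binding protein, was at 11526 and 12236 and then 14819 and 13984 TPM, a small rise (log2 0.28 ± 0.0823, limma adjusted p = 0.0177). Its call was lost without any 1 of the 4 libraries, at log2 values between 0.23 and 0.32. With all 4 it was lost under size-factor scaling (limma adjusted p = 0.328), without the variance trend (0.177) and without the filter on low TPM (0.110). It was lost too in the fit over all 12 uninjected libraries (0.130) and with the replicate number as a block (0.0523).

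The targeted genes were read first in mDKO embryos, over whole genes, since which exons are deleted is not known here. At E2C Kdm3a was at 0.642 and 0.557 TPM in mDKO against 2.59 and 2.07 in control, and Kdm3b at 0.129 and 0.289 against 1.05 and 0.40. At L2C Kdm3a was at 28.4 and 26.3 TPM against 34.1 and 43.8, and Kdm3b at 0.651 and 1.79 against 3.06 and 3.7. All 4 pairs were lower in mDKO, with no overlap, though several of these levels are under 1 TPM. These differences within a stage were not tested, and the share of all genes with such an order was not counted. The same stages in mDKO embryos, in libraries that share none with the control, gave 3980 higher (31.7%) and 2588 lower genes (20.6%) among the same 12545. Of the 3954 control genes up by at least 2-fold 3081 (77.9%) also rose in mDKO, and of the 2660 down by at least 2-fold 1735 (65.2%) also fell. The size of the stage change differed for many genes: the difference of the 2 stage changes, tested as an interaction in limma over 8 libraries, was called for 3538 genes (28.2%), 1754 with the control change above (14%) and 1784 with it below (14.2%). Calls in mDKO depended on single libraries: 2601 were higher and 875 lower without L2C mDKO replicate 1, and 1058 were lower without L2C mDKO replicate 2. For the difference between genotypes, 1116 were above without E2C control replicate 2, and 1181 and 1177 below without E2C control replicate 1 and L2C mDKO replicate 2. Genes that rose by at least 2-fold in control held 22.7% and 22.0% of TPM in L2C mDKO libraries, against 42.5% and 42.3% in control, and those that fell held 25.3% and 26.7% against 12.5%. At E2C the mDKO libraries were at 6.72% and 6.40% for the rising and 48.9% and 50.9% for the falling genes, close to control. These classes were chosen on the control libraries, which favours a larger shift in control. The gap between genotypes in these shares was not tested.

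**Figure D5:**
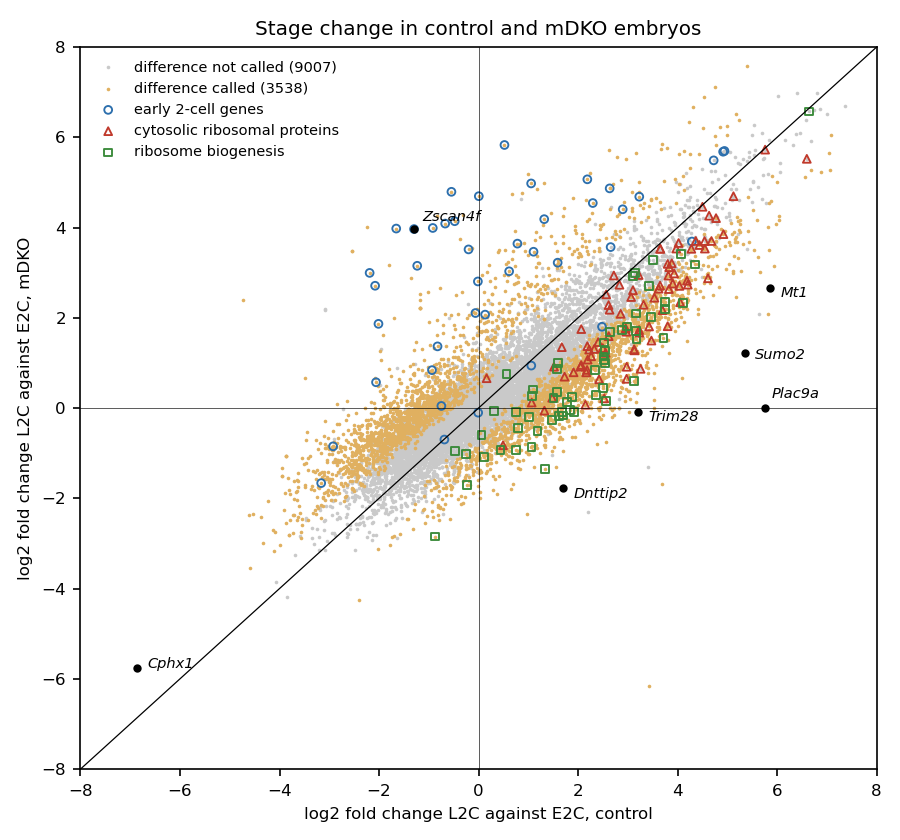
Log2 fold change from E2C to L2C in mDKO embryos against that in control embryos for the 12545 genes, 1 point per gene, with the 3538 genes whose difference was called in ochre and 3 gene lists outlined. Early 2-cell genes lie mostly above the line of equal change and ribosome biogenesis genes mostly below it and Mt1, Sumo2, Plac9a, Trim28 and Dnttip2 are labelled there.

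The gene lists differed in how the genotypes compared. Over all genes, the control change was called above that of mDKO in 14% and below in 14.2%, with medians of 0.06 and 0.10. Of 58 ribosome biogenesis factors, the control change was above that of mDKO in 46 and below in 0, with medians of 1.9 and 0.42. Of 81 ribosomal proteins it was above in 59 and below in 1 (medians 3.22 and 2.18), and of 33 proteasome subunits above in 24 and below in 0 (medians 0.78 and -0.44). The 15 genes of the subcortical maternal complex list went the other way, with 0 above and 8 of 15 below (medians -2.17 and -1.18). For early 2-cell genes it went the other way too. In mDKO embryos 35 of 42 rose and 3 fell, where 31.7% of all genes rose and 20.6% fell. The control change was above in 0 and below in 32. Zscan4f was at 46 and 70.1 TPM in E2C mDKO and 1035 and 787 in L2C mDKO libraries, against 521 and 778 at E2C and 299.99 and 223 at L2C in control, so mDKO was lower than control at E2C and higher at L2C. The difference of the log2 changes was -5.26 ± 0.35 (adjusted p = 1.63e-05). Zscan4c and Zscan4b had differences of -5.18 ± 0.50 and -4.79 ± 0.34.

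Among genes with a mean of at least 20 TPM in 1 of the 4 groups, Eif3j1, Plac9a, Sumo2, Defb42 and Dnttip2 had the control change farthest above that of mDKO. Eif3j1, a subunit of initiation factor 3, was uneven between libraries of a group, at 0.00455 and 34.7 TPM at E2C and 82.2 and 49.1 at L2C in control (log2 3.43 ± 1.38, limma adjusted p = 0.0557, not called). Its log2 fold change was 0.85 without E2C replicate 1 and 6.01 without E2C replicate 2, called in both cases (adjusted p = 0.0482 and 2.06e-05). In mDKO it was at 73.5 and 78.4 TPM at E2C and 0.149 and 0.012 at L2C (difference 9.59 ± 1.64). Its copy Eif3j2 is near-identical, so the share of each is uncertain. Defb42, a beta-defensin, went from 0 and 0.481 to 69 and 65.5 TPM in control and from 0 and 0, in both libraries, to 2.4 and 4.29 in mDKO (difference 3.73 ± 0.40). Sumo2, the modifier of the SUMO pathway, went from 47.7 and 39.6 to 1835 and 1797 TPM in control. In mDKO it went from 228 and 216 to 485 and 555, a difference of 4.13 ± 0.18 (adjusted p = 3.6e-06). Its mDKO level was above control at E2C and below it at L2C. Dnttip2, a ribosome assembly factor, went from 36.6 and 29.1 to 112 and 105 TPM in control and from 82 and 101 to 25.7 and 26.6 in mDKO (difference 3.47 ± 0.23). Trim28 was at 33.5 and 16.9 TPM at E2C and 23.3 and 21.4 at L2C in mDKO (difference 3.29 ± 0.38), and Mt1 went from 883 and 871 to 5923 and 5162 (difference 3.2 ± 0.18). For both, mDKO exceeded control at E2C. Plac9a was at 76.4 and 45 TPM at L2C in control and is listed at 0 in all 4 mDKO libraries, and its copy Plac9b was at 63.8 and 62.9 TPM in L2C mDKO against 135 and 139 in control.

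RNA of other cells was looked for with the whole marker lists. Of 20 cumulus and granulosa cell markers, 3 were at 1 TPM or more in both E2C libraries and 5 in both L2C libraries, and their sum was between 115 and 118 TPM at E2C and between 65.3 and 69.9 at L2C. Amh and Col1a2 were at 0 in all 4 libraries. Serpine2, which follicle cells also express, made up most of it at E2C, at 89.2 and 85.1 and then 23.4 and 31.4 TPM, and Cyp19a1 (aromatase) went from 20.2 and 19.9 to 3.54 and 1.41. Gja1, a gap junction gene of follicle cells and of embryos, went from 0.232 and 1.43 to 13.9 and 18.1 TPM and was counted among the junction genes too. In the MII libraries the 20 cumulus and granulosa markers summed to between 929 and 1105 TPM, with 12 at 1 TPM or more in both. Of 17 sperm and spermatid markers, 6 were at 1 TPM or more in both E2C and 8 in both L2C libraries, with sums of 131 and 138 TPM and of 139 and 170 TPM, and Gapdhs was at 0 in all 4. Prm2, a sperm protamine, fell from 34.9 and 48.3 to 12.2 and 17.5 TPM, and Ldhc, the sperm lactate dehydrogenase, rose from 2.08 and 1.44 to 44.9 and 55.6. Of 16 blood cell markers, 3 and 4 were at 1 TPM or more, and their sum went from between 15.6 and 23.9 TPM at E2C to between 306 and 357 at L2C. Nearly all of it was alpha globin, Hba-a1 at 10.3 and 17.7 and then 183 and 312 TPM and its near-identical copy Hba-a2, listed at 0 at E2C, at 112 and 37.4 at L2C. The beta globins Hbb-bs and Hbb-bt and the leukocyte gene Ptprc were at 0 in all 4 libraries. The part of these RNAs in the results above was not tested.

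Features that the rule did not use are given as medians and shares, with no test. The median transcript length was 2702 nucleotides for genes up by at least 2-fold and 2758.5 for those down, against 3415.5 for genes not called. By quartile of length, the median log2 fold change went from 0.34 in the shortest to -0.08 in the longest transcripts, and by quartile of GC content from -0.14 in the lowest to 0.34 in the highest. In mDKO libraries the corresponding medians were 0.43 and -0.02 for length and 0.04 and 0.25 for GC content. The part of length and GC content in the stage change was not tested. Among the rising genes, 856 were under 1 TPM in every MII and E2C control library, so they passed the TPM rule through L2C alone. Their promoters had a median observed-to-expected CpG ratio of 0.50, against 0.73 for all 3954 rising genes and 0.62 for the 2660 falling genes, and 7.56% held the ETS motif against 15.0% of all rising genes. The share of genes on the X chromosome was 5.26% for the rising, 3.93% for the falling and 4.04% for all 12545 genes.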

How the data were processed

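The authors deposited gene levels in TPM as separate tables for groups of libraries. Per the submitters' processing notes, STAR 2.7.10b, Bowtie2 2.3.4.1, RSEM 1.3.1 and SAMtools 1.9 were used with mm10. For the annotation, each tool's role and any filter: not given in the sources used here. Columns were matched to samples by name, with 0 left over. TPM sums to a fixed total and holds no depth.

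Genes at 1 TPM or more in at least 2 of the 4 control libraries were tested on log2(TPM + 1) with limma 3.58.1 in R 4.3.3 (trend, moderated variance), E2C against L2C, with Benjamini-Hochberg adjusted p under 0.05. The mDKO change and the difference of changes were fitted on the same genes. Fold changes on this scale understate the change of low genes. Coordinates and promoters come from RefSeq GRCm38.p6, which matched 24289 of 24412 symbols, and are gene spans. The fit was tested on simulated data.

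Named genes are the 12 highest and 12 lowest changes at 20 TPM or more, up to 3 called members of each list per direction, anchor genes of the field, the 5 most abundant genes per stage, those beside the TPM rule and the 5 largest differences between genotypes per direction, of which 134 are described; 1 of the 12 highest is not reported here. The members, lists and alternatives were chosen with earlier results of these data known.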

Additional observations from a re-analysis of the deposited data

Results flagged for a closer look

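Of 134 named genes, 73 had a stage change that differed between control and mDKO embryos in limma's test of the difference, and 28.2% of all tested genes did. Nothing is read from these shares, since the naming rule took genes by this difference too. Each value below is the log2 change in control minus that in mDKO. It was above 0 for 30 genes and below 0 for 43, and most of the named genes were chosen for large changes in control.

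Genes that rose in control with a value above 0 rose less, or fell, in mDKO. The largest of these values were Plac9a 5.76, Sumo2 4.13, Defb42 3.73, Dnttip2 3.47, Trim28 3.29, Mt1 3.2, Psmb1 2.22, Eif3c 2.05 and Polr2h 2.04. They were followed by Odc1 1.97, Rpa2 1.91, Zp3 1.79, Gpn3 1.78, Psmb5 1.76, Spic 1.66, Tead4 1.5, Rab20 1.44 and Mpc2 1.36, and by Ythdf2 1.3, Nob1 1.16, Ldhc 1.11, Obox8 1.03, Kif11 1.03, F11r 0.99, Snrpd2 0.69, Mt2 0.63 and H2afz 0.47. Plac9a is listed at 0 in all 4 mDKO libraries, so its value depends on the pseudocount. Eif3j1, which was not called in control and differed widely between libraries of a group, had the highest value, 9.59. Genes that fell in control with a value above 0 fell further in mDKO, namely Bms1 1.96 and Npm1 0.75.

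Genes that fell in control with a value below 0 fell less, or rose, in mDKO. The largest were Zscan4f -5.26, Zscan4c -5.18, Zscan4b -4.79, Zscan4d -4.38 and Fam90a1a -2.25, which include Zscan4 copies whose reads could be split. Next came Casp8 -2.19, Obox1 -2.17, Obox7 -2.02, Dph6 -2.01, Bcl2l10 -1.99, Crabp2 -1.97, Tbpl2 -1.77, Btg4 -1.74, Ttk -1.72 and Nlrp4a -1.69. Smaller values were seen for Kpna7 -1.61, Dux -1.5, Eif1b -1.49, Neil3 -1.42, Mphosph6 -1.38, Cldn8 -1.35, Gpr1 -1.34, Cnot6l -1.3, Ldhb -1.29 and Fbxo43 -1.25. The remaining ones were Bmp15 -1.2, Pou5f1 -1.17, Dazl -1.15, Pttg1 -1.1, Uhrf1 -1.09, Prm2 -1.02, Ndufa8 -1.01, Oog4 -0.96, Ooep -0.95, Oas1e -0.95, Gdf9 -0.78, Obox2 -0.73, Ccnb2 -0.72 and Pfdn4 -0.67. Genes that rose in control with a value below 0 rose further in mDKO, namely Prps1 -1.33, Ccne1 -1.15, Cks2 -0.71 and Omt2b -0.42.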

How the results depend on the processing

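Of the 131 named genes that changed, 124 were called under every alternative run in which they were tested. The runs were pseudocounts of 0.1 and 5, no filter or a stricter filter on low TPM, and size-factor or quantile scaling. Further runs were a fit over all 12 uninjected libraries, no variance trend, the replicate block, and leaving out each library. The stricter filter tested 118 of the 134 named genes. In control, the counts of genes at least 2-fold higher and lower moved by over 1.5 times with a pseudocount of 5 (2577 and 1658). With 1 TPM required in all 4 libraries, where 9368 genes are tested, those of genes higher (3268) and at least 2-fold higher (2389) did so too. Under that filter 3608 genes were lower, so falls outnumbered rises. Directions that turned were those of Omt2b (0), Nanog (-0.23) and Smg9 (-0.074) under quantile normalization, and Nanog without E2C replicate 2 (-0.25, against 0.51 without E2C replicate 1); for the last 2 genes no change was called, and the cause was not tested. Leaving out 1 library gave between 4269 and 4519 higher and between 3139 and 3774 lower genes in control. In mDKO it gave between 3476 and 5904 calls, with 2601 to 3684 higher and 875 to 2503 lower, and for the difference between genotypes between 1116 and 1822 above 0 and between 1177 and 1658 below 0. The lowest of these mDKO and difference counts are over 1.5 times under the full ones. With 1 library left in a group, its spread is taken from the other groups. With the replicate number as a block, 4847 genes were higher and 4079 lower in control. Same-numbered libraries of the 4 groups did not deviate together (correlations between -0.0846 and 0.0403). These correlations cannot show whether same-numbered pools shared a collection day or mothers. TPM gives no depth, and low levels have no counting interval.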
